A study of Mus musculus with 4 samples.

Results

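The genes described here are 43 genes of the cell division cycle, chosen by symbol: 16 that act in DNA replication, 16 that act in mitosis and 11 regulators of the preceding G1 phase. Each of the 43 symbols matched 1 of the 34866 Ensembl gene identifiers in the deposited count table through GENCODE M21, and all 43 passed the filter on low counts that left 14050 tested genes. The RNA came from stem and progenitor cells of mouse dorsal telencephalon, the source of the cerebral cortex, taken at E11.5 (embryonic age in days) and kept for 5 days as neurospheres, free-floating balls of dividing cells, with basic fibroblast growth factor. The 2 shControl libraries came from wild-type cells transduced with 1 lentiviral vector, CS-EG-shControl, at a multiplicity of infection of 30. The 2 triple knockdown libraries came from wild-type cells that received 3 vectors together at 10 each (pCS-EG-shPhf21b and, for the zinc-finger genes, pLV-EG-shZfp57 with pLV-EG-shZfp7), so that the number of vectors and, for a pair of them, the backbone differ between the groups along with the hairpins. The labels give no strain, and they do not say whether replicates were separate cultures; the p-values measure the spread between these libraries, which may be technical.

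A dividing cell loads the Mcm2 to Mcm7 helicase onto replication origins in G1, copies its DNA in S phase, and separates the copies in mitosis under the control of cyclin-dependent kinases. D-type cyclins with Cdk4 or Cdk6, and E-type cyclins with Cdk2, release E2F transcription factors from the retinoblastoma proteins, which turns on the replication genes. Mitotic genes are switched on later, through the CHR promoter element, bound by the MuvB complex, and CCAAT boxes, bound by NF-Y. In cortical progenitors the length of G1 and the D cyclins are tied to the choice between further division and neuron production, and neurons leave the cycle for good.

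The letters of these promoter elements are shown for 4 members that hold them, because the genes of both programmes were measured here and can be read by promoter class. Sequences are from RefSeq, build GRCm38.p6, and each covers the 150 bases before the annotated start, 5′ to 3′ on the gene's own strand, which is the minus strand for all 4: Mcm6 at chr1:128359706-128359855, Cdk1 at chr10:69352913-69353062, Ccnb2 at chr9:70421555-70421704 and Top2a at chr11:99024190-99024339. Capitals mark the E2F octamers TTTGGCGC, TTTCCCGC, TTTGCCGC and TTTCGCGC, the CHR hexamer TTTGAA and the CCAAT pentamer, on either strand.
Mcm6: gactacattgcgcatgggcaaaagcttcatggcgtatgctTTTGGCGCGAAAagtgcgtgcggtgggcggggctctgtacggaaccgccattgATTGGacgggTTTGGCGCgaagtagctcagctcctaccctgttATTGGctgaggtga
Cdk1: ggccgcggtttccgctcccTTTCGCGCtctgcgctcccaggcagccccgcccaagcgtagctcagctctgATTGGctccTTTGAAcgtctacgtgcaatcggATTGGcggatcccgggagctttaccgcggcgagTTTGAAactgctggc
Ccnb2: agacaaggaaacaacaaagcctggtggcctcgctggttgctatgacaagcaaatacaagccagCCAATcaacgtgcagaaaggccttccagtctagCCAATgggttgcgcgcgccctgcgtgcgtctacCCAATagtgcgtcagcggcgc
Top2a: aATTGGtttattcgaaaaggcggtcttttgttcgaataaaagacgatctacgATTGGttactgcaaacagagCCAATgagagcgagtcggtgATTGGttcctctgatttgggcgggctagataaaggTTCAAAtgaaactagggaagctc
The Mcm6 stretch holds 3 E2F octamers, of which a pair on opposite strands overlap and read as 1 run of capitals. Cdk1 holds both kinds of element, with 1 E2F octamer and 2 CHR hexamers. In Ccnb2 the 3 CCAAT pentamers begin at -87, -54 and -21 from the start, and a CHR hexamer begins at base 5 of the transcribed part, which is not printed. Top2a holds 4 CCAAT pentamers and 1 CHR hexamer, read here on the opposite strand as TTCAAA. Promoter windows of 300 bases were found for 35 of the 43 members (38 windows). An E2F octamer occurred in 5 of 15 windows of replication members (33.3%), 1 of 13 of mitosis members (7.69%) and 2.26% of all 32851 windows. The CHR hexamer occurred in 9 of 13 windows of mitosis members (69.2%), 2 of 15 of replication members (13.3%) and 17.9% of all windows. CCAAT was found in 11 of 15 windows of replication members (73.3%), 12 of 13 of mitosis members (92.3%) and 37.4% of all. The 10 windows of G1 regulators held an E2F octamer in 1, the CHR hexamer in 0 and CCAAT in 4 (40.0%). A match describes letters and shows no binding.

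None of the 43 genes rose or fell in the triple knockdown in edgeR's quasi-likelihood test at an adjusted p under 0.05, a threshold that 1.37% of all tested genes passed. At an unadjusted p under 0.05 there were 2 members, Ung and Ccnd3, both higher, or 4.65% of the members, against 12.0% of all tested genes. DESeq2 and limma-voom also called 0 of 43, where they called 0.249% and 1.45% of the genes they tested. The median log2 fold change was 0.06 over the members and -0.01 over all tested genes, with 25 members above 0 and 18 below. Fitted values ran from -0.31 (Chaf1b) to 0.44 (Ccnd3). In bulk RNA, fewer cycling cells and less RNA per cycling cell cannot be told apart.

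The intervals bound how large a change could have been, given the spread between these libraries, which may be technical. That spread was largely shared across genes, with 2 residual degrees of freedom per gene and a median of 82.5 in total. The 95% interval of the log2 fold change lay inside a 1.5-fold change in either direction for 37 of 43 members, against 39.1% of all tested genes and 63.0% of the 8206 tested genes in the members' range of mean level (4.28 to 477 CPM, the read count scaled to a common library size). The other 6 were Ung, Chaf1b, Cdc6, Kif23, Ccnd3 and Cdk6, and across all 43 the bounds reached -0.72 and 0.87. These are bounds on transcript levels per gene, and a p above the threshold does not show that the groups are alike.

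**Figure D1:**
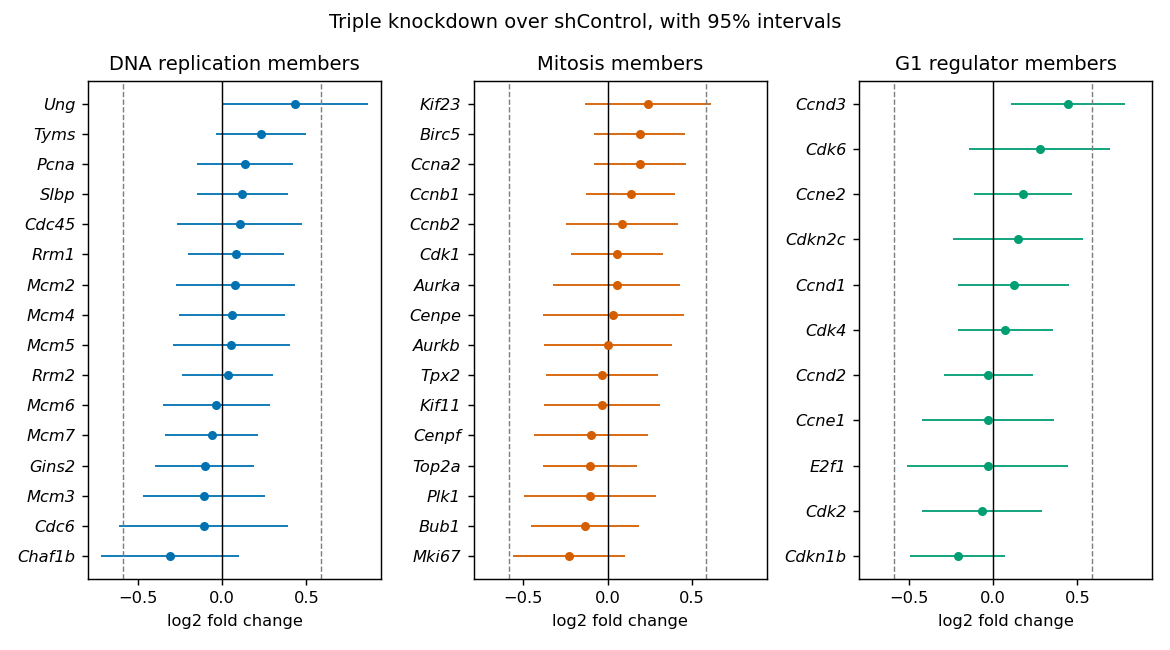
Log2 fold change of each member, triple knockdown over shControl, with its 95% interval from edgeR; dashed lines mark a 1.5-fold change. All intervals except those of Ung and Ccnd3 cross 0, and 37 of 43 lie between the dashed lines.

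In most members the control libraries differed from each other more than the group means did. Total counts were 20779211 and 14694387 in shControl and 17901386 and 15170491 in the triple knockdown. The raw counts of the control pair had a chi-square per degree of freedom of 17.0, against 6.88 for the knockdown pair and 10.9 for shControl replicate 1 with triple knockdown replicate 2, so no libraries were near-copies. Genes of mitochondrial DNA took 30.3% and 33.9% of the control counts and 26.6% and 28.5% of the knockdown counts. Of the 43 members, 29 were higher in shControl replicate 1 than in replicate 2. The median absolute log2 ratio between the control libraries was 0.19 over the members, that between the knockdown libraries 0.14, and that between the group means 0.10. For 30 members (69.8%) the group means lay closer together than the control libraries did, against 57.9% of all tested genes. The measures are unlike, since a mean of 2 libraries varies less than a single library. A smaller gap between the means is therefore the more usual outcome even for genes without a change. Transcripts of the 3 targeted genes did not pass either: Zfp57 measured 14.6 and 11.8 CPM in shControl and 10.7 and 9.32 CPM in the triple knockdown, Phf21b 7.25 and 7.36 CPM in shControl and 5.49 and 6.45 CPM in the triple knockdown, and Zfp7 1.67 and 2.25 CPM in shControl and 1.97 and 0.977 CPM in the triple knockdown, with edgeR adjusted p = 0.341, 0.644 and 0.80.

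**Figure D2:**
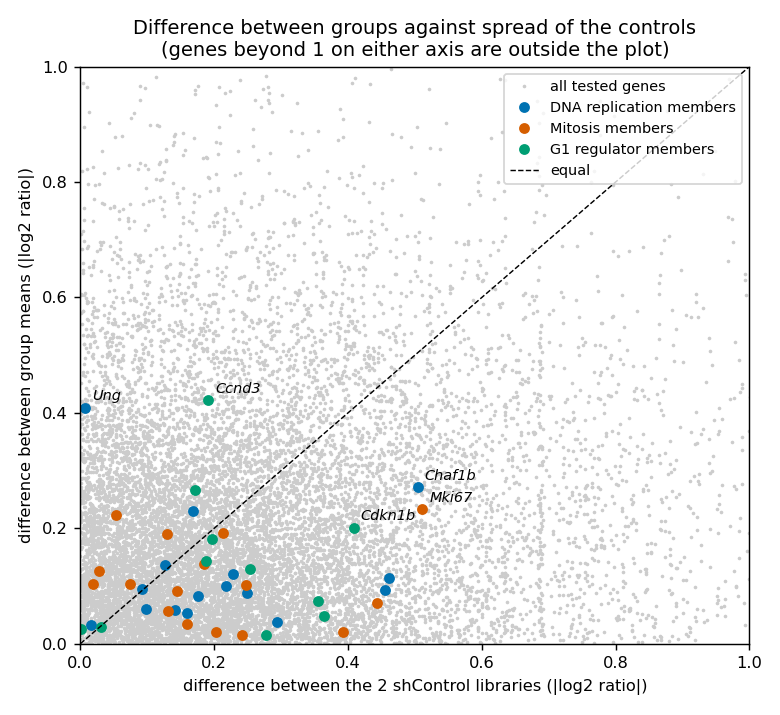
Absolute log2 ratio of the group means (y axis) against that of the 2 shControl libraries (x axis), with 0.5 CPM added, for all tested genes (grey) and the 43 members (colours). Below the dashed line, where 30 of 43 members lie, the controls differ more than the group means; Ung and Ccnd3 stand above it, and Mki67 and Chaf1b, at 0.51 and 0.50, are the members farthest to the right. Cdkn1b, also named in the plot, lies at 0.41, behind Cdc45, Mcm3 and Aurka. Each group mean averages 2 libraries, so it varies less than a single library does.

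The replication genes are the helicase and its loaders, the polymerase clamp, and the enzymes that supply deoxynucleotides. The 6 subunits of the Mcm2 to Mcm7 helicase did not pass. Mcm2 measured 13.0 and 11.4 CPM in shControl and 12.8 and 13.1 CPM in the triple knockdown. Mcm3 measured 14.9 and 10.7 CPM in shControl and 13.1 and 10.9 CPM in the triple knockdown, so the knockdown values fell within the control range. Mcm4 measured 19.9 and 22.3 CPM in shControl and 22.2 and 21.6 CPM in the triple knockdown. In Mcm2, Mcm3 and Mcm4 the groups overlapped. Mcm5 measured 13.9 and 12.5 CPM in shControl and 14.1 and 13.5 CPM in the triple knockdown, with overlap. Mcm6 measured 21.5 and 21.7 CPM in shControl and 21.3 and 20.8 CPM in the triple knockdown; both knockdown libraries lay just below both controls, by a fraction of the fitted error (log2 fold change -0.03 with SE 0.16, edgeR adjusted p = 0.967). Mcm7 measured 48.3 and 51.8 CPM in shControl and 45.6 and 50.4 CPM in the triple knockdown, again with overlap. The 6 log2 fold changes ran from -0.11 to 0.08.

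Levels of the 6 subunits were compared with each other as CPM per kilobase of the longest coding transcript in the basic M21 set. In shControl they were 16.9 for Mcm7, 5.88 for Mcm4, 4.96 for Mcm6, 4.23 for Mcm3, 3.91 for Mcm5 and 3.62 for Mcm2. With the median transcript length in place of the longest, Mcm7 stayed highest at 23.2 and Mcm2 lowest at 3.62, while Mcm6 moved above Mcm4 (5.94 and 5.88) and Mcm5 above Mcm3 (4.98 and 4.23). Of Mcm7's 31-base words, 33.4% also occur in another gene and 12.6% of its exonic bases overlap other genes, so its level is less certain than the others.

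Ung, the uracil-DNA glycosylase that removes uracil from DNA (ENSMUSG00000029591.14, chromosome 5, 114130386 to 114139323 in GRCm38), had the smallest p of the replication members. It measured 5.67 and 5.63 CPM in shControl and 6.93 and 8.40 CPM in the triple knockdown. The controls were nearly equal and both knockdown libraries lay above them, with the knockdown pair apart from each other (log2 fold change 0.43 with SE 0.22, edgeR adjusted p = 0.409), or 135% of control (95% interval 100.2% to 182%). Its counts were low, at 122, 75.4, 130.5 and 129 estimated reads. Over 12 alternative fits its log2 fold change ran from 0.29 to 0.57.

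Tyms, thymidylate synthase, which makes the thymine nucleotide, measured 90.2 and 101 CPM in shControl and 110.4 and 115 CPM in the triple knockdown. Both knockdown libraries were above both controls (log2 fold change 0.23 with SE 0.13, edgeR adjusted p = 0.502), or 118% of control (95% interval 97.7% to 141%). Chaf1b, a subunit of the CAF-1 complex that places histones on new DNA, measured 10.5 and 7.29 CPM in shControl and 7.30 and 7.30 CPM in the triple knockdown. Here shControl replicate 1 alone was high and the other 3 libraries were level, so the fitted value (log2 fold change -0.31 with SE 0.20, edgeR adjusted p = 0.59) was 0.00 without that library and -0.52 without shControl replicate 2. Pcna, the sliding clamp of the DNA polymerases, had the highest level of the group. It measured 474 and 434 CPM in shControl and 474 and 525 CPM in the triple knockdown (edgeR adjusted p = 0.785). Of its 31-base words, 23.3% also occur in other genes, so its level is less certain. Rrm1 and Rrm2 encode the subunits of ribonucleotide reductase. Rrm1 measured 43.8 and 36.7 CPM in shControl and 38.9 and 46.7 CPM in the triple knockdown. Rrm2 measured 84.1 and 68.5 CPM in shControl and 73.0 and 83.6 CPM in the triple knockdown. Their CPM ratio, Rrm2 over Rrm1, was 1.92 and 1.86 in shControl and 1.88 and 1.79 in the triple knockdown.

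The remaining replication members had log2 fold changes from -0.11 to 0.12. They were Cdc6, which loads the helicase, Cdc45 and Gins2, which join it to make it active, and Slbp, which binds the stem-loop of histone mRNAs. Cdc6 was the lowest in level, at 4.60 and 4.28 CPM in shControl and 4.21 and 4.04 CPM in the triple knockdown, with the groups apart by a small margin. Cdc45 measured 12.9 and 9.24 CPM in shControl and 12.8 and 11.3 CPM in the triple knockdown, with the groups overlapping. Slbp measured 67.8 and 57.8 CPM in shControl and 65.4 and 71.4 CPM in the triple knockdown, also with overlap. Gins2 is uncertain, since 67.3% of its exonic bases overlap other genes, Gse1 more than any other. In all, 4 of 16 replication members had groups that did not overlap (Tyms and Ung higher, Mcm6 and Cdc6 lower). That is 25.0%, against 41.3% of all tested genes. The group's median log2 fold change was 0.06, and 10 of 16 values were above 0.

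Of all 43 members, 12 (27.9%) had both knockdown libraries above or below both controls, against 41.3% of all tested genes. The 8 higher were Tyms, Ung, Ccnb1, Ccna2, Kif23, Birc5, Ccnd3 and Cdk6, and the 4 lower were Mcm6, Cdc6, Top2a and Ccnd2.

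**Figure D3:**
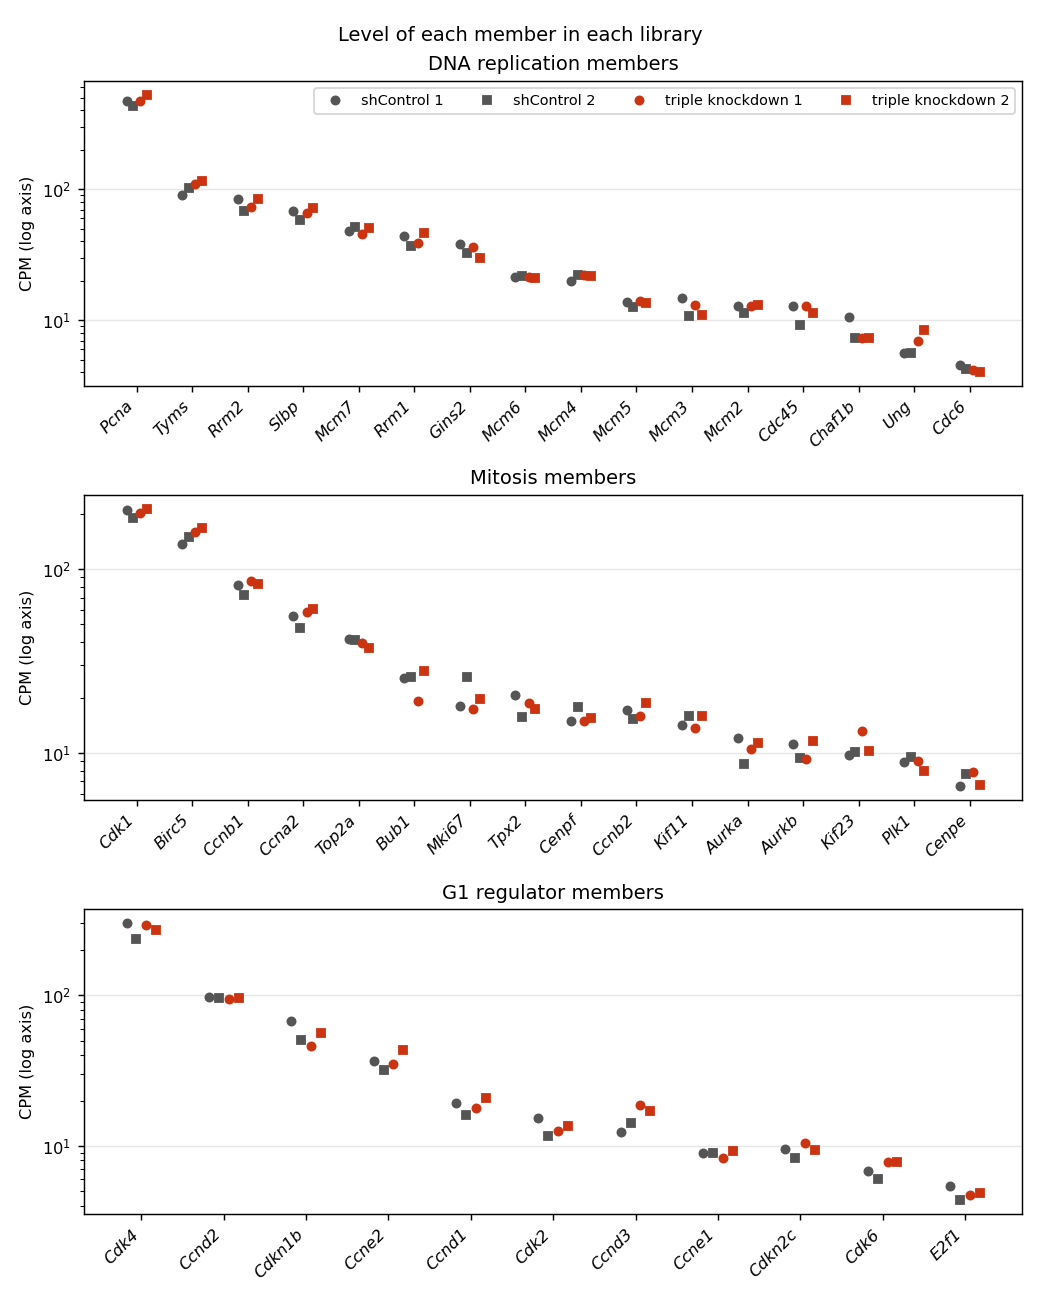
Level of each member in CPM on a log axis, in each of the 4 libraries, for the 3 roles; genes are ordered by their shControl mean. The libraries of the groups interleave for most genes, and the levels span 4.28 CPM (Cdc6) to 477 CPM (Pcna) as means over the libraries.

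The mitosis genes are the kinases and cyclins that start division and the motors and kinetochore proteins that carry it out. Mki67, which encodes the proliferation marker Ki-67 that coats mitotic chromosomes (ENSMUSG00000031004.8, chromosome 7, 135689784 to 135716361), measured 17.9 and 25.8 CPM in shControl and 17.3 and 19.7 CPM in the triple knockdown. Triple knockdown replicate 1 lay just below both controls and replicate 2 between them, and shControl replicate 2 alone was high (log2 fold change -0.23 with SE 0.17, edgeR adjusted p = 0.639). The fitted value was -0.48 when shControl replicate 1 was left out and 0.06 when shControl replicate 2 was, so that 1 control library decides its sign. Cdk1, the kinase that drives entry into mitosis (ENSMUSG00000019942.13, chromosome 10, 69335146 to 69352938), measured 208 and 190.2 CPM in shControl and 202 and 212 CPM in the triple knockdown, with the groups overlapping (log2 fold change 0.06 with SE 0.14, edgeR adjusted p = 0.924), or 104% of control (95% interval 86.0% to 126%).

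Birc5, survivin, a subunit of the chromosomal passenger complex, measured 137 and 149 CPM in shControl and 159 and 168 CPM in the triple knockdown. Both knockdown libraries lay above both controls (log2 fold change 0.19 with SE 0.14, edgeR adjusted p = 0.625), or 114% of control (95% interval 94.8% to 138%). Ccna2, cyclin A2, which acts from S phase into mitosis, measured 55.8 and 48.1 CPM in shControl and 58.6 and 60.3 CPM in the triple knockdown. Its groups did not overlap (log2 fold change 0.19 with SE 0.14, edgeR adjusted p = 0.633). Of its exonic bases, 12.5% overlap other genes, Exosc9 more than any other. Ccnb1 and Ccnb2 encode the B cyclins that bind Cdk1. Ccnb1 measured 82.1 and 72.2 CPM in shControl and 86.5 and 83.4 CPM in the triple knockdown. Of its 31-base words, 27.8% occur elsewhere, in a pseudogene more than in any other gene. Ccnb2, which has no such words, measured 17.0 and 15.3 CPM in shControl and 15.9 and 18.6 CPM in the triple knockdown, with overlap. Both B cyclins had small values, at 0.14 and 0.09 on the log2 scale.

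Kif23, a kinesin of the central spindle needed for cytokinesis, measured 9.75 and 10.1 CPM in shControl and 13.2 and 10.2 CPM in the triple knockdown. The second knockdown library was level with the controls and the first was above them (log2 fold change 0.24 with SE 0.19, edgeR adjusted p = 0.667). Top2a, the topoisomerase that untangles replicated chromosomes, measured 41.6 and 41.0 CPM in shControl and 39.5 and 37.3 CPM in the triple knockdown, slightly lower in both knockdown libraries (log2 fold change -0.10 with SE 0.14, edgeR adjusted p = 0.845). Bub1, a spindle checkpoint kinase, measured 25.4 and 25.9 CPM in shControl and 19.2 and 27.8 CPM in the triple knockdown, where triple knockdown replicate 1 was low and the other 3 were close together. The remaining 7 (the kinases Aurka, Aurkb and Plk1, the kinetochore proteins Cenpe and Cenpf, the spindle motor Kif11, and the spindle assembly factor Tpx2) had log2 fold changes between -0.10 and 0.06, and in each of them the groups overlapped. The median over the 16 mitosis members was 0.02, with 9 above 0, 7 below and 5 whose groups did not overlap. These 5 are 31.25% of the 16, against 41.3% of all tested genes.

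The G1 regulators are the D and E cyclins, their kinases and the inhibitors of these. Ccnd3, cyclin D3 (ENSMUSG00000034165.16, chromosome 17, 47505051 to 47599691), had the smallest p of the 43 and measured 12.3 and 14.1 CPM in shControl and 18.8 and 17.0 CPM in the triple knockdown. All knockdown values lay above all control values (log2 fold change 0.44 with SE 0.17, edgeR adjusted p = 0.213), or 136% of control (95% interval 108% to 172%). The call was not made in any of 12 alternative fits, where its log2 fold change ran from 0.34 to 0.55 and its adjusted p from 0.0511 (without shControl replicate 2) to 1 (DESeq2). Ccnd1, cyclin D1, measured 19.2 and 16.0 CPM in shControl and 17.9 and 20.7 CPM in the triple knockdown, with overlap. Ccnd2, cyclin D2, measured 98.0 and 95.9 CPM in shControl and 94.5 and 95.7 CPM in the triple knockdown, slightly lower in both knockdown libraries (log2 fold change -0.03 with SE 0.13, edgeR adjusted p = 0.965). Whether the change of Ccnd3 differs from that of Ccnd1 or Ccnd2 was not tested; the CPM ratio of Ccnd3 to Ccnd2 was 0.126 and 0.147 in shControl and 0.199 and 0.178 in the triple knockdown, and that of Ccnd3 to Ccnd1 was 0.642 and 0.883 against 1.048 and 0.823. Per kilobase of longest coding transcript the control level was 15.3 for Ccnd2, 6.25 for Ccnd3 and 4.70 for Ccnd1. The median length gave the same order, but at 96.4, 6.51 and 4.70, so the size of the lead of Ccnd2 is uncertain. Of the exonic bases of Ccnd1, 23.4% overlap other genes, LTO1 more than any other, which makes its level less certain.

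The kinases that pair with these cyclins were measured at very different levels. Cdk4 measured 301 and 235 CPM in shControl and 291 and 273 CPM in the triple knockdown. Here shControl replicate 2 was low (log2 fold change 0.07 with SE 0.14, edgeR adjusted p = 0.899). Of the exonic bases of Cdk4, 19.7% overlap other genes, Tspan31 more than any other. Cdk6 measured 6.83 and 6.01 CPM in shControl and 7.84 and 7.82 CPM in the triple knockdown, with both knockdown libraries above both controls (log2 fold change 0.28 with SE 0.21, edgeR adjusted p = 0.657). Per kilobase the control level was 130.4 for Cdk4 and 0.557 for Cdk6. Cdk2, the partner of the E cyclins, measured 15.2 and 11.7 CPM in shControl and 12.5 and 13.6 CPM in the triple knockdown, with overlap. Ccne1 measured 9.01 and 9.01 CPM in shControl and 8.37 and 9.32 CPM in the triple knockdown, and its paralog Ccne2 36.8 and 32.1 CPM in shControl and 34.8 and 43.5 CPM in the triple knockdown. For Ccne2 triple knockdown replicate 2 was high and replicate 1 lay between the controls (log2 fold change 0.18 with SE 0.15, edgeR adjusted p = 0.695). Of the exonic bases of Ccne2, 17.4% overlap other genes, Ints8 more than any other.

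The inhibitors are proteins that hold the kinases inactive. Cdkn1b, p27, measured 67.2 and 50.5 CPM in shControl and 46.4 and 55.8 CPM in the triple knockdown. Triple knockdown replicate 2 lay between the controls, and replicate 1 below both (log2 fold change -0.21 with SE 0.14, edgeR adjusted p = 0.597). The fitted value was -0.38 when shControl replicate 2 was left out and 0.01 when shControl replicate 1 was, so 1 control library decides this value as well. Cdkn2c, p18, measured 9.57 and 8.34 CPM in shControl and 10.4 and 9.45 CPM in the triple knockdown, with overlap. E2f1, the transcription factor at the end of this pathway, measured 5.39 and 4.36 CPM in shControl and 4.74 and 4.89 CPM in the triple knockdown, with overlap as well (log2 fold change -0.03 with SE 0.24, edgeR adjusted p = 0.978). The median over the 11 regulators was 0.07, with 6 above 0, 5 below and 3 whose groups did not overlap (Ccnd3 and Cdk6 higher, Ccnd2 lower). These 3 are 27.3% of the 11, against 41.3% of all tested genes.

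Levels averaged within each role overlapped between the groups. As the mean log2 of CPM with 0.5 added, the replication members stood at 4.80 and 4.64 in shControl and 4.76 and 4.78 in the triple knockdown, the mitosis members at 4.64 and 4.62 against 4.62 and 4.67, and the G1 regulators at 4.56 and 4.37 against 4.51 and 4.58. In each role shControl replicate 2 was the lowest library, for mitosis by a margin below the printed decimals, and shControl replicate 1 stood above triple knockdown replicate 1 in each role. Leaving out shControl replicate 1 gave group medians of the log2 fold change of 0.15, 0.12 and 0.25, and leaving out shControl replicate 2 gave -0.01, 0.04 and -0.02, for replication, mitosis and G1 in that order.

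**Figure D4:**
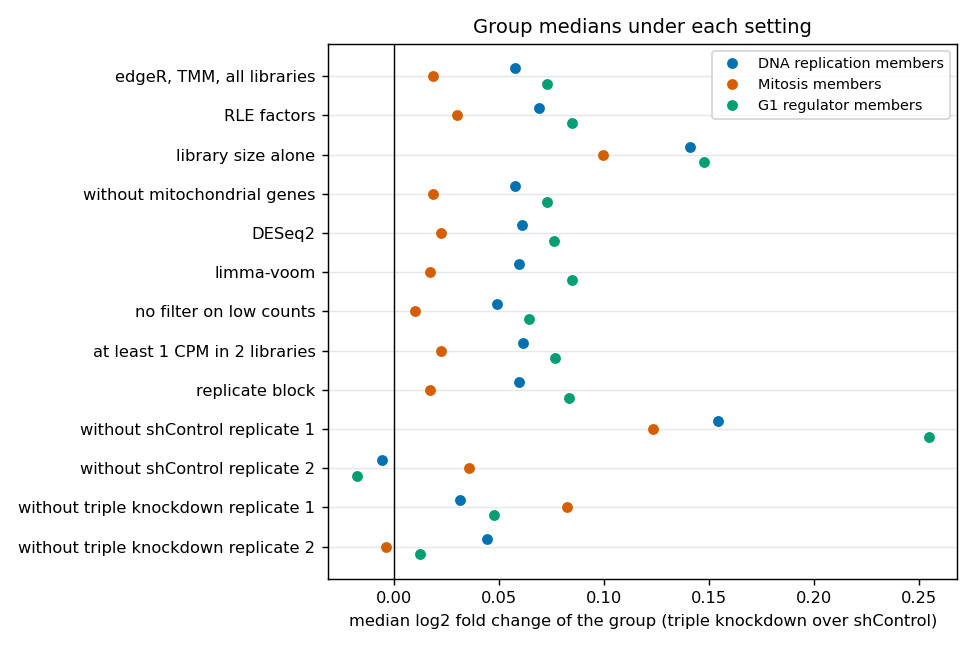
Median log2 fold change of the 16 replication, 16 mitosis and 11 G1 members under each of 13 settings. The values with all libraries lie between 0.01 and 0.15, and those without 1 library spread from -0.02 to 0.25.

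The other genes of the pathway showed the same count. Of 58 further replication genes, all tested, 0 rose and 0 fell, with a median log2 fold change of 0.05 and 3 (5.17%) at an unadjusted p under 0.05, where all tested genes had 1.37% called and 12.0% at an unadjusted p under 0.05. The pair with the smallest p were Pole2, a subunit of polymerase epsilon, at 13.6 and 11.3 CPM in shControl and 17.4 and 15.2 CPM in the triple knockdown, and Dna2, a nuclease-helicase, at 3.20 and 3.76 CPM in shControl and 5.01 and 5.15 CPM in the triple knockdown (edgeR adjusted p = 0.341 and 0.347). Of 80 further mitosis genes, all tested, 0 rose and 0 fell, with a median of 0.00 and 4 (5.00%) at an unadjusted p under 0.05, again against 12.0%. Nek2, a centrosome kinase, measured 4.83 and 4.88 CPM in shControl and 6.88 and 7.43 CPM in the triple knockdown (adjusted p = 0.252). Cenpk, a kinetochore protein, measured 96.0 and 115 CPM in shControl and 72.9 and 96.7 CPM in the triple knockdown, with overlap (adjusted p = 0.312).

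Of 48 further G1 regulators 47 were tested, and 0 rose and 0 fell, with a median of -0.07 and 4 (8.51%, against 12.0%) at an unadjusted p under 0.05. Ccng2, a cyclin linked to cell cycle arrest, measured 36.7 and 37.8 CPM in shControl and 25.7 and 29.4 CPM in the triple knockdown, below control in both knockdown libraries (log2 fold change -0.44 with SE 0.15, edgeR adjusted p = 0.135). Tfdp2, a partner of the E2F factors, measured 6.60 and 6.91 CPM in shControl and 9.91 and 10.0 CPM in the triple knockdown, above control in both (log2 fold change 0.56 with SE 0.20, edgeR adjusted p = 0.161). Of 67 replication-dependent histone genes, whose mRNAs are made in S phase and mostly lack a poly(A) tail, 28 passed the filter on low counts, and 0 of these rose or fell. Their median was 0.28, while the summed level of all 67 was 256 and 256 CPM in shControl and 259 and 242 CPM in the triple knockdown. The 2 with the smallest p, Hist1h2ah and Hist1h3h, share 92.5% and 94.2% of their 31-base words with other genes and are uncertain.

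Markers of the cells in these cultures were read beside the cycle genes. All 12 markers of neural progenitors were tested and 0 rose or fell. Their median log2 fold change was -0.05, with 3 above 0 and 9 below. In 3 of the 12 both knockdown libraries lay below both controls, and in 1, Vim, above. That share was 33.3%, against 41.3% of all tested genes in either direction. Sox2 and Pax6, the pair with the smallest p, were both among the 3 lower. Sox2 measured 66.9 and 62.1 CPM in shControl and 49.997 and 55.6 CPM in the triple knockdown and Pax6 28.0 and 28.1 CPM in shControl and 24.1 and 23.3 CPM in the triple knockdown. Of 15 neuron markers 2 fell and 0 rose, where 1.37% of all tested genes were called. Tubb3, the neuronal tubulin, measured 118 and 88.6 CPM in shControl and 64.3 and 61.6 CPM in the triple knockdown (edgeR adjusted p = 0.000445), and Nsg2 204 and 167 CPM in shControl and 124 and 128 CPM in the triple knockdown (adjusted p = 0.0144). In 10 of the 15 both knockdown libraries lay below both controls, and in 1 above, against 41.3% of all tested genes in either direction. The summed neuron markers were 1205 and 1088 CPM in shControl and 894 and 932 CPM in the triple knockdown, and the part of this difference in the cell cycle values was not tested.

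Of 8 markers of intermediate progenitors, which still divide, 6 were tested and 0 rose or fell. Eomes, their defining transcription factor, measured 3.30 and 4.36 CPM in shControl and 1.92 and 1.76 CPM in the triple knockdown (log2 fold change -1.03 with SE 0.32, edgeR adjusted p = 0.0907), and Insm1 measured 7.38 and 6.76 CPM in shControl and 5.60 and 5.73 CPM in the triple knockdown (adjusted p = 0.596). In 3 of the 6 tested, these included, both knockdown libraries lay below both controls, and in 0 above. Among all tested genes, 41.3% had both knockdown libraries above or below both controls. The median log2 fold change of the 6 was -0.16. The mean log2 of CPM with 0.5 added, over the 6 tested, was 3.08 and 2.995 in shControl and 2.81 and 2.87 in the triple knockdown, without overlap. The summed CPM of all 8, 82.3 and 77.3 CPM in shControl and 80.8 and 76.7 CPM in the triple knockdown, overlapped, and its largest parts were Btg2 at 38.0 and 37.7 CPM in shControl and 37.4 and 36.9 CPM in the triple knockdown and Gadd45g at 27.2 and 23.6 CPM in shControl and 31.6 and 26.7 CPM in the triple knockdown. The part of these cells in the cell cycle values was not tested.

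Among 6 tested erythroid markers of 10, Hbb-y, an embryonic globin, rose (1.37% of all tested genes were called), at 12.3 and 12.3 CPM in shControl and 21.6 and 16.4 CPM in the triple knockdown (edgeR adjusted p = 0.0399). In 4 of the 6 both knockdown libraries lay above both controls, and in 0 below. That share was 66.7%, against 41.3% of all tested genes in either direction. The median log2 fold change of the 6 was 0.56, with 5 above 0 and 1 below. The sum of the 10 was 27.3 and 29.4 CPM in shControl and 42.3 and 40.2 CPM in the triple knockdown. Of 10 myeloid markers 7 were tested with 0 calls. The pair with the smallest p had fitted values of opposite sign: Ptprc measured 5.34 and 10.1 CPM in shControl and 12.6 and 10.6 CPM in the triple knockdown (adjusted p = 0.145), and Lyz2, which shares 32.8% of its 31-base words with other genes, 16.5 and 14.2 CPM in shControl and 12.7 and 9.71 CPM in the triple knockdown (adjusted p = 0.234). The myeloid sum was 34.1 and 38.2 CPM in shControl and 38.5 and 32.0 CPM in the triple knockdown, with overlap. Of 10 endothelial and mural markers 4 were tested with 0 calls, and their sum was 8.27 and 10.1 CPM in shControl and 8.90 and 8.99 CPM in the triple knockdown. Rgs5 measured 2.28 and 2.55 CPM in shControl and 1.97 and 1.95 CPM in the triple knockdown and Pecam1 2.88 and 4.51 CPM in shControl and 3.94 and 4.36 CPM in the triple knockdown (adjusted p = 0.823 and 0.845). All 8 meningeal markers were tested with 0 calls, and their sum was 60.6 and 59.2 CPM in shControl and 55.0 and 57.4 CPM in the triple knockdown. Pdgfra measured 11.1 and 14.2 CPM in shControl and 9.27 and 9.38 CPM in the triple knockdown and Tbx18 0.557 and 0.451 CPM in shControl and 0.959 and 1.37 CPM in the triple knockdown (adjusted p = 0.319 and 0.399). Both knockdown libraries lay above or below both controls in 3 of 7 myeloid markers (42.9%) and 2 of 4 endothelial and mural markers (50%). For meningeal markers it was 6 of 8 (75%), 3 higher and 3 lower. Among all tested genes the share was 41.3%. The part of these other cells in the cell cycle values was not tested.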

How the data were processed

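Gene expression was measured by RNA sequencing in 2 shControl and 2 triple knockdown libraries. The deposited table holds raw estimated counts by gene and library; per the submitters' processing notes they came from Salmon with builds GRCm38 and mm10. Version and annotation: not given in the sources used here. In each library 23.1% to 25.1% of values were not whole, and all were rounded. Identifiers were matched without version to GENCODE M21 (GRCm38): 34582 of 34866 had a symbol. Strand handling is not given, so overlapping genes cannot be separated.

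Tests used edgeR 4.0.16 (R 4.3.3) after filterByExpr with a minimum count of 10 and TMM scaling. The quasi-likelihood fit was robust and its F test two-sided, with Benjamini-Hochberg adjustment over 14050 genes and a threshold of 0.05. CPM is relative to the counts of tested genes times the TMM factor. The SE is the log2 fold change divided by the square root of F. An exact permutation test of 2 against 2 cannot go below p = 0.33 and was not used. Alternatives used DESeq2 1.42.0, limma 3.58.1, other scalings and filters, a replicate block, and leaving out each library. All 4 columns were used. The code was tested on simulated data with changes placed in genes drawn from all those tested. It called 33.8% of 65 genes changed 1.5-fold, 62.1% of 66 changed 2-fold and 95.5% of 66 changed 4-fold, with 13 false calls. Changes of 1.5-fold to 2-fold can thus go uncalled.

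The 43 members and the wider lists were chosen with earlier results of these data known. Values in every library are given for the 4 members of each role with the smallest p, the 2 highest in CPM and named families; Cdc6, Cdc45, Slbp, Top2a, Bub1, and E2f1 were added after their values were seen. Of each wider list the genes past the threshold, or else the 2 with the smallest p, are named; Btg2 and Gadd45g were added after their values were seen.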

Additional observations from a re-analysis of the deposited data

How the results depend on the processing

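The count of 0 members called held in all 12 alternatives, and the smallest adjusted p of any member was 0.0511 (Ccnd3, without shControl replicate 2). In 24 of 43 members the sign of the fitted log2 fold change, uncalled throughout, changed in at least 1 alternative, and 22 of 516 values moved by more than 1 SE; the range of all was -0.52 to 0.57. The count over all genes, 192 (76 higher, 116 lower), was 105 (77 higher, 28 lower) with scaling by library size alone and 55 (23 and 32) with DESeq2, which tested 22122 genes; without 1 library it ran from 44 to 614. For the first 2 the cause was not tested. Scaling by library size alone moved the median of the mitosis members from 0.02 to 0.10. Without 1 library the medians ran from -0.01 to 0.15 for replication, -0.0040 to 0.12 for mitosis and -0.018 to 0.25 for G1 members. Same-numbered libraries did not deviate together (correlation -0.03 over tested genes), so the numbers are not taken as pairs; with a replicate block 172 genes and 0 members were called, and the medians were 0.06, 0.02 and 0.08. Depth limits the low genes most: Cdc6, E2f1 and Ung, all under 9 CPM in every library, had the largest SEs of the 43.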

Other observations

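Genes that share the promoter letters of the cycle genes were described in the same way over the whole table. Of 10560 tested genes with a promoter window, 38 rose and 80 fell, or 1.12%, with a median log2 fold change of -0.02. Among the 482 with an E2F octamer, 1 rose and 3 fell (0.830%), with a median of -0.04. Among the 663 with a CHR hexamer and a CCAAT pentamer in 1 window, 6 rose and 4 fell (1.51%), with a median of 0.00. The groups were not compared by a test.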
